A study of Homo sapiens with 6 samples.

Results

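Small nucleolar RNA (snoRNA) host genes are transcribed as spliced RNAs whose introns release snoRNAs, the small guide RNAs that direct chemical modification of ribosomal RNA. The set described here holds every gene whose current symbol is SNHG followed by a number, together with *GAS5*, *ZFAS1*, *DANCR*, *EPB41L4A-AS1*, *TAF1D*, *CYTOR* and *MEG8*. These are 35 of the 58735 genes listed in each library, chosen by name, with earlier results of these data known. Of them, 27 had a mean of at least 1 FPKM (fragments per kilobase of exon, corrected for the depth of the library) and were tested among 13718 genes. The other 8 were under this filter.

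The cells were SK-N-AS, an established human neuroblastoma cell line, in which either Prp19 was knocked down by a small interfering RNA (the siPrp19 group) or a negative control siRNA was used (the NC group). Prp19, encoded by *PRPF19*, is a core component of the pre-mRNA splicing machinery. The labels put the collection of RNA at 72 h from transfection, and the study's own methods state a shorter interval. There were 3 libraries per group, which the study's methods call biological replicates without saying how they were separated. The siRNA lowers its target and does not remove it.

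Libraries are called here by the name of the value column in each deposited table (NCa, NCb, NCc, siPrp19a, siPrp19b, siPrp19c). For 4 of the 6 tables, the column name belongs to another library than the record the table is attached to. For NCb and siPrp19b the record states the opposite group. The host genes are therefore compared over all 6 libraries by column name, and also over the 4 libraries whose name and record state the same group, NCa and NCc against siPrp19a and siPrp19c. *PRPF19* was at 83.0, 83.1 and 93.0 FPKM in NCa, NCb and NCc, and at 19.6, 19.1 and 18.5 FPKM in siPrp19a, siPrp19b and siPrp19c. It was low in each library named siPrp19 and high in each library named NC, the 2 contested libraries included. Its mean under siPrp19 was 22.1% of that under NC, a difference of -2.12 ± 0.07 (SE) on the log2(FPKM + 1) scale at an adjusted p of 0.000215 by limma with Benjamini-Hochberg adjustment. With 4 libraries the difference was -2.15 at an adjusted p of 0.0266 by limma.

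Read depth ran from 14898629 reads in NCb to 19992527 in siPrp19c. Mitochondrial genes took 8.29% of the reads in siPrp19a and between 5.15% and 5.48% in the other 5 libraries. The neuroblastoma markers *HAND2* and *GATA3* and the mesenchymal markers *VIM* and *CD44* were each above 20 FPKM in every library. *TH* (0.312 to 0.662 FPKM) and *NOTCH2* (0.0692 to 0.173 FPKM) were near 0. Among the mesenchymal markers, *YAP1* was lower under siPrp19 (log2 difference -1.21, adjusted p of 0.00182 by limma), and the other 4 tested did not pass. With 4 libraries *YAP1* did not pass either (-1.15, adjusted p of 0.0819 by limma).

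After splicing, the exons of most of these genes form an RNA that codes for little or no protein and is cleared in the cytoplasm by nonsense-mediated decay (NMD), a process that follows translation. Translation is therefore part of what sets their level. Many of them, like the genes of ribosomal proteins, belong to the 5′ TOP class, whose transcripts begin with a C followed by a run of pyrimidines that couples translation to growth signals. The snoRNA itself is trimmed from the excised intron and bound by core proteins, box C/D snoRNAs by the methyltransferase fibrillarin and its partners, and box H/ACA snoRNAs by the pseudouridine synthase dyskerin with NHP2, NOP10 and GAR1.

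The start sites are shown first, because some of the host genes have at their start the pyrimidine run that is common among ribosomal protein genes. RefSeq gives a start site (GRCh38.p14) for 24 of the 27 tested host genes. A C followed by at least 4 further C or T letters began exactly at that start in 7 of the 24 host genes (29.2%). The same held for 45 of 69 ribosomal protein genes (65.2%) and for 5.72% of the 9532 tested genes with a start site. The 7 are printed below on their own strand, from 10 bases before the start to 20 bases from the start on, with the pyrimidine run in capitals.
*SNHG12*: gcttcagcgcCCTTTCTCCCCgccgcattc
*SNHG4*: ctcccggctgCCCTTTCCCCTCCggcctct
*SNHG32*: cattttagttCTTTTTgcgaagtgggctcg
*SNHG5*: gcacttcggtCTTTTacgtcggccttcgcg
*TAF1D*: aatagccaacCCTTTTCTTCCgcacggttg
*SNHG19*: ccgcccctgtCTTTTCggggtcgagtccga
*ZFAS1*: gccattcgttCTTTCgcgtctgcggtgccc
These lie at chr1:28581854-28581883 (minus strand), chr5:139274091-139274120 (plus), chr6:31834906-31834935 (plus), chr6:85678714-85678743 (minus), chr11:93741476-93741505 (minus), chr16:2155339-2155368 (minus) and chr20:49278632-49278661 (plus), in the same order. The shortest run had 5 letters (*SNHG5*, *ZFAS1*) and the longest 13 (*SNHG4*). When the run was allowed to begin anywhere from 5 bases before the start to 10 bases from the start on, 12 of the 24 host genes held one, against 76.8% of the ribosomal protein genes and 23.1% of the tested genes. Only the strand of the gene was searched. A match is a description of the annotated start, which may differ from the start used in these cells, and RefSeq gives one start per gene here.

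The first question was how abundant the host genes were in these cells. Levels per kilobase ran over a wide range, with 9 host genes at a mean of 20 FPKM or more, 10 between 5 and 20, and 8 between 1 and 5. *GAS5*, a growth-arrest-associated host gene of box C/D snoRNAs (chr1:173863900-173868882, minus strand, GRCh38), had the highest mean. It was at 66.7, 67.6 and 82.1 FPKM in the NC libraries and at 65.1, 63.0 and 68.8 FPKM in the siPrp19 libraries. This gene alone made up 14.9% of the summed FPKM of the 27. The groups overlapped, and NCc stood above the other 5 libraries. *SNHG8* was next at 51.2, 54.1 and 79.7 FPKM under NC and 37.1, 55.6 and 59.96 FPKM under siPrp19, below *GAS5* in each of the 6 libraries. *SNHG29*, *SNHG6*, *SNHG19*, *SNHG32*, *SNHG5*, *DANCR* and *SNHG16* followed, with group means between 22.6 and 36.3 FPKM. Neighbours in the order of these 7 overlapped in their ranges over the libraries, whereas the lowest library of *SNHG16* (22.3 FPKM) lay above the highest of *SNHG1* (17.4 FPKM). In the middle stood *SNHG1*, *SNHG7*, *SNHG3*, *TAF1D*, *SNHG17*, *SNHG4*, *ZFAS1*, *SNHG15*, *EPB41L4A-AS1* and *SNHG11*, with group means between 5.40 and 17.0 FPKM. The lowest 8 tested were *SNHG12*, *SNHG10*, *SNHG30*, *SNHG20*, *SNHG21*, *SNHG14*, *SNHG26* and *SNHG9*.

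**Figure D1:**
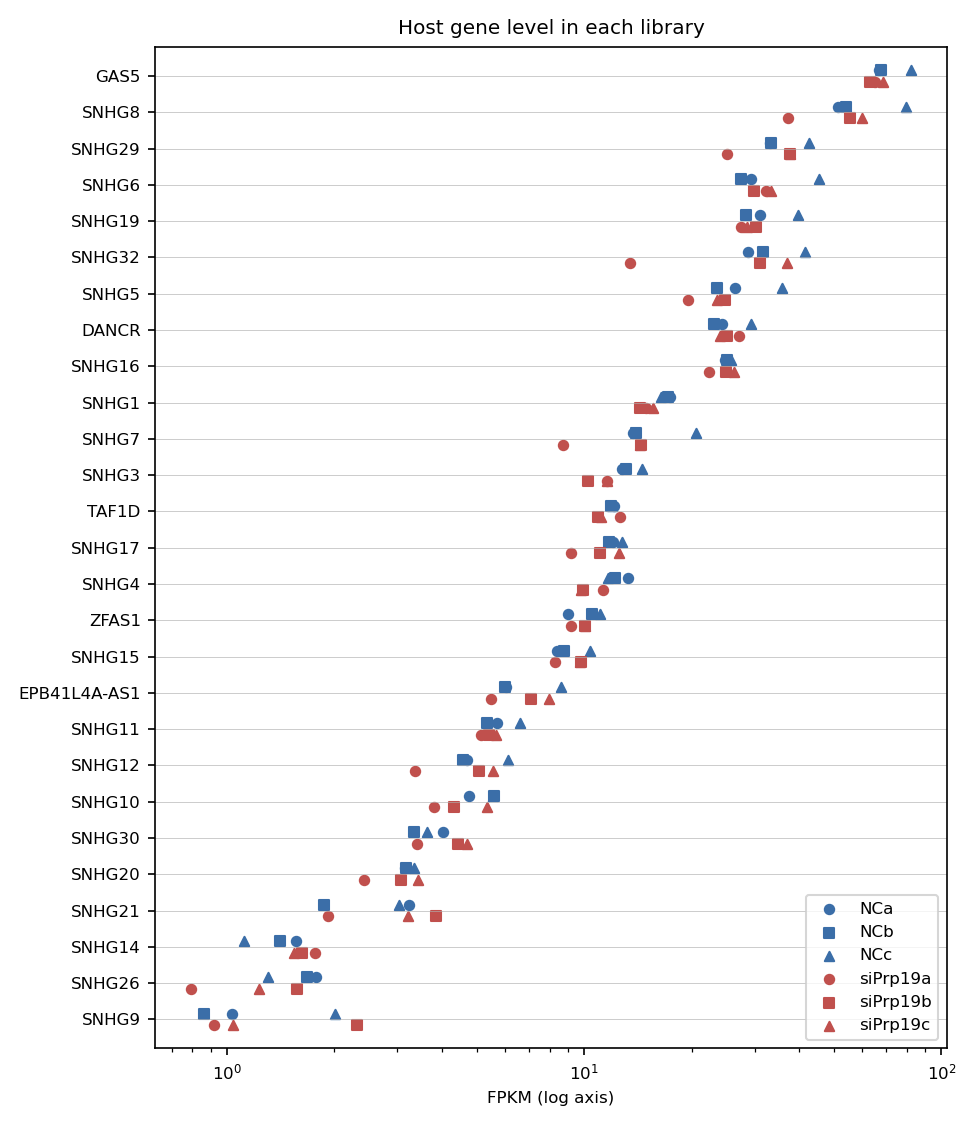
FPKM (log axis) of the 27 tested host genes in the 6 libraries, ordered by mean, with NC in blue and siPrp19 in red and circles, squares and triangles for libraries a, b and c. The triangle of NCc is the rightmost point for 16 host genes and the circle of siPrp19a the leftmost for 15.

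These FPKM values depend on the annotation. The exon length of a gene in GENCODE 29 is the union over all its transcripts, and 14 of the 27 tested host genes have transcripts with a retained intron in that union (19 of 29 transcripts for *GAS5*, 13 of 25 for *SNHG1*). The level of a short spliced form is therefore understated, by an amount that was not measured. In 15 of the 27, exons overlap an exon of a gene on the opposite strand, and the counting is not stated to use strand. For *EPB41L4A-AS1* the overlap with *EPB41L4A* covers 49.6% of its exon bases. For *SNHG21* a gene on the same strand covers 72.9%. If reads on shared exon bases were left out, the levels of such genes are understated too.

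The main comparison asked whether knockdown of Prp19 changed the host genes. None of the 27 passed an adjusted p of 0.05 by limma (0 of 27, 0 higher and 0 lower). Over all tested genes, 1089 of 13718 passed (7.94%), of which 353 were higher (2.57%) and 736 lower (5.37%). At an unadjusted p under 0.05 there were 3 of 27 host genes, against 3240 of all tested genes (23.6%). The smallest adjusted p of a host gene was 0.113. With 4 libraries, 0 host genes passed and 1 (*SNHG5*) had an unadjusted p under 0.05, where 2 of all genes passed (0.0146%), namely *PRPF19* and *MEST*. Voom on the recovered reads also called 0 of 27, against 1370 genes (9.99%), with 1 host gene (*SNHG14*, higher) at an unadjusted p under 0.05. With the libraries grouped as their records state, 0 host genes and 0 genes in all passed (0%), with 2 host genes (*SNHG9* and *SNHG21*) and 191 genes at an unadjusted p under 0.05.

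The 3 host genes with an unadjusted p under 0.05 were lower under siPrp19, and they were also the only tested host genes whose groups did not overlap. Over all tested genes, 18.1% had all siPrp19 values below all NC values and 13.2% had them all above. *SNHG3*, host of box H/ACA snoRNAs of the SNORA73 family, was at 12.7, 13.1 and 14.5 FPKM under NC and at 11.6, 10.3 and 11.6 FPKM under siPrp19. The log2 difference (siPrp19 minus NC) was -0.25 ± 0.08 (SE) at an adjusted p of 0.113 by limma. *SNHG4*, host of box H/ACA snoRNAs of the SNORA74 family, was at 13.3, 12.2 and 11.6 FPKM under NC and at 11.3, 9.92 and 9.78 FPKM under siPrp19, a log2 difference of -0.24 ± 0.08 (SE) at an adjusted p of 0.134 by limma. *SNHG1*, host of several box C/D snoRNAs, was at 17.4, 17.1 and 16.4 FPKM under NC and at 14.9, 14.3 and 15.5 FPKM under siPrp19. The log2 difference (siPrp19 minus NC) was -0.18 ± 0.06 (SE) at an adjusted p of 0.155 by limma. In *SNHG4*, 626 exon bases are shared with *MATR3* on the same strand. These 3 genes varied less between libraries of a group than most other host genes. With 4 libraries their log2 fold changes were -0.22, -0.22 and -0.14, with adjusted p-values of 0.553, 0.571 and 0.665 by limma.

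**Figure D2:**
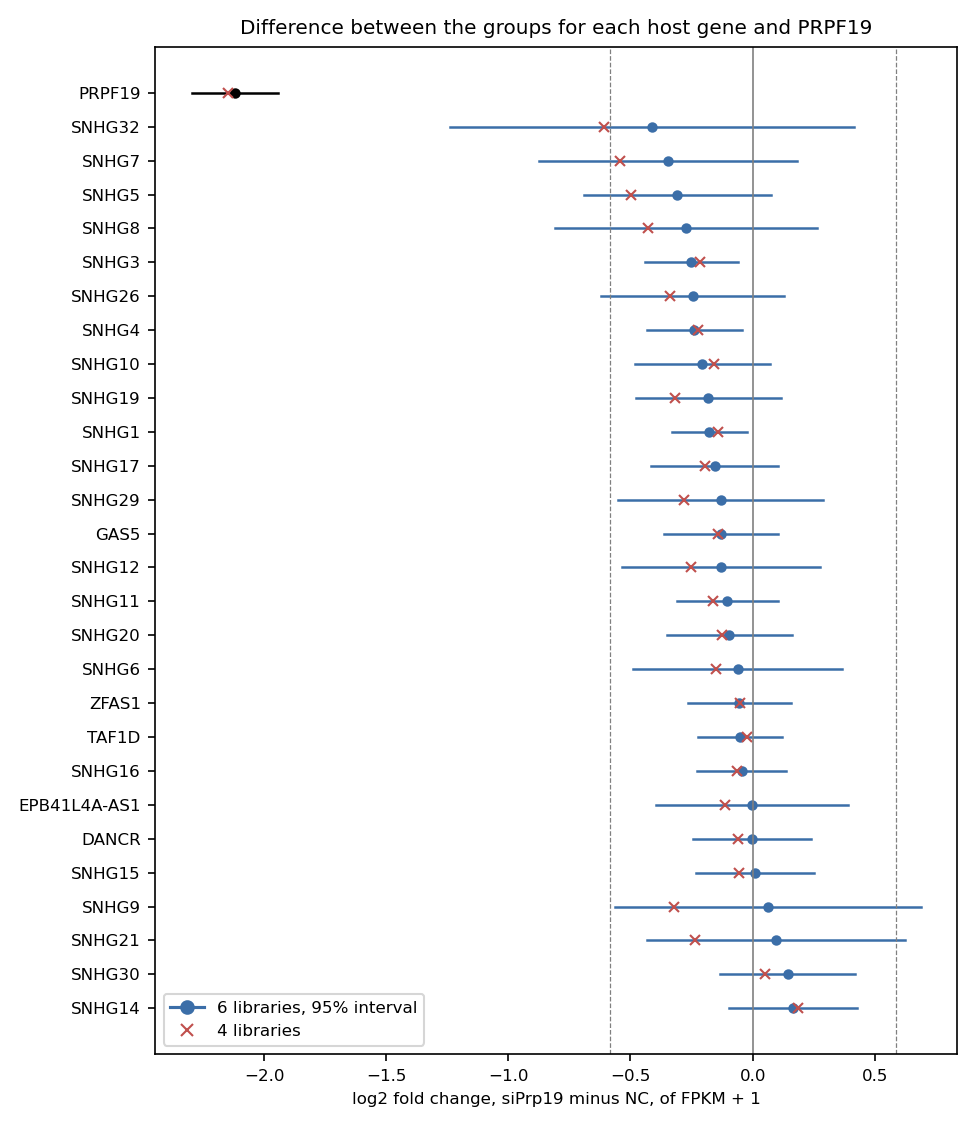
Log2 fold change (siPrp19 minus NC, on FPKM + 1) of *PRPF19* and the 27 tested host genes, with the estimate and 95% interval over 6 libraries as a point and a line and the 4-library estimate as a cross; dashed lines mark a 1.5-fold change. The intervals of 20 host genes lie between the dashed lines, and *PRPF19* lies far outside them.

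The width of the interval around the estimate differed between host genes. For 20 of the 27 the 95% interval of the limma estimate lay inside a 1.5-fold change in either direction, as it did for 76.5% of all tested genes. These intervals are on the log2(FPKM + 1) scale, which understates the change of low genes. With voom on the recovered reads, which has no such offset, the intervals of 18 of the 27 lay inside, against 63.2% of all tested genes. The 2 that left were *SNHG14* (from 0.07 to 0.65) and *SNHG30* (from -0.14 to 0.67). For *GAS5* the log2 fold change was -0.13, with an interval from -0.36 to 0.11. For *DANCR*, a host gene known for keeping progenitor cells undifferentiated, it was -0.00, with an interval from -0.25 to 0.24. *SNHG16* (-0.05, from -0.23 to 0.14), *TAF1D* (-0.05, from -0.22 to 0.12) and *ZFAS1* (-0.05, from -0.26 to 0.16) had intervals of similar width. *TAF1D* and *SNHG32* are the 2 host genes annotated as protein-coding, and the exons of *TAF1D* encode a subunit of the RNA polymerase I factor SL1. *SNHG15* and *SNHG11* were estimated at 0.01 (from -0.23 to 0.25) and -0.10 (from -0.31 to 0.10).

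The intervals of 7 host genes reached past a 1.5-fold change. *SNHG32* had the lowest estimate of all at -0.41, from -1.24 to 0.41. Its values were 28.8, 31.6 and 41.5 FPKM under NC and 13.4, 31.1 and 36.9 FPKM under siPrp19. Only siPrp19a was low, and without that library the log2 fold change was 0.01. *SNHG7* was at 13.7, 13.9 and 20.5 FPKM under NC and at 8.70, 14.4 and 14.3 FPKM under siPrp19, with an estimate of -0.35 (from -0.87 to 0.18). Here NCc was the high library and siPrp19a the low one, and NCa, NCb, siPrp19b and siPrp19c lay close together. *SNHG5* (-0.31, from -0.69 to 0.07) and *SNHG8* (-0.27, from -0.81 to 0.26) had NCc highest and siPrp19a lowest as well. The other 3 were *SNHG26* (-0.25, from -0.62 to 0.13), *SNHG21* (0.09, from -0.43 to 0.62) and *SNHG9* (0.06, from -0.56 to 0.69). *SNHG26*, *SNHG21* and *SNHG9* rested on few reads, with 33 to 74, 29 to 71 and 7 to 21 reads per library.

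As a group, 22 of the 27 host genes had an estimate below 0, with a median log2 fold change of -0.13. Over all tested genes, 54.0% had an estimate below 0 and the median was -0.02. With 4 libraries, 25 of the 27 were below 0 and the median was -0.16. The median moved to -0.03 without NCc and to -0.05 without siPrp19a. With voom on the recovered reads, 16 of the 27 were below 0. The voom median was -0.05 for the host genes and 0.05 for all tested genes. The 5 host genes estimated above 0 were *SNHG14*, *SNHG30*, *SNHG21*, *SNHG9* and *SNHG15*, and the remaining ones not yet given (*SNHG10*, *SNHG19*, *SNHG17*, *SNHG29*, *SNHG12*, *SNHG20*, *SNHG6* and *EPB41L4A-AS1*) had estimates between -0.21 and -0.00.

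The spread between libraries had a pattern that the groups do not describe. NCc was the highest library for 16 of the 27 host genes (59.3%) and siPrp19a the lowest for 15 (55.6%), against 28.6% and 24.7% of all tested genes. The median deviation of the host genes from their own mean over the 6 libraries, on the log2(FPKM + 1) scale, was 0.20 in NCc and -0.16 in siPrp19a. In NCa, NCb, siPrp19b and siPrp19c it lay between -0.02 and 0.04. The ratio of NCc to siPrp19a was 3.09 for *SNHG32*, 2.36 for *SNHG7* and 2.15 for *SNHG8*, and 1.03 for *SNHG4* and 0.952 for *TAF1D*. *SNHG14* went the other way, with a ratio of 0.634. The 7 host genes with a pyrimidine run at the start stood at both ends of this order.

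The ribosomal protein genes that carry snoRNAs in their introns followed the same 2 libraries more uniformly. All 28 of them were highest in NCc, and 20 were lowest in siPrp19a. Their median deviation was 0.42 in NCc and -0.21 in siPrp19a, and between -0.09 and -0.00 in the other 4 libraries. None of the 28 passed the test in the 6 libraries (0 higher, 0 lower) or in the 4, and their median log2 fold change was -0.16. The remaining host genes of snoRNAs in the annotation, mostly protein-coding genes of other functions, had 187 tested members with median deviations between -0.05 and 0.05 in every library. Of these 187, 2 rose and 11 fell, near the 2.57% and 5.37% of all tested genes, with a median log2 fold change of -0.05. The 4 with the largest change were *NALF1* (-0.76), *MBD2* (-0.76), *FILIP1* (-0.73) and *SLC39A11* (-0.63), which encode a sodium leak channel subunit, a methyl-CpG binding protein, a filamin A interacting protein and a zinc transporter. Their adjusted p-values were 0.00310, 0.0183, 0.0104 and 0.00845 by limma, and none of the 187 passed with 4 libraries.

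**Figure D3:**
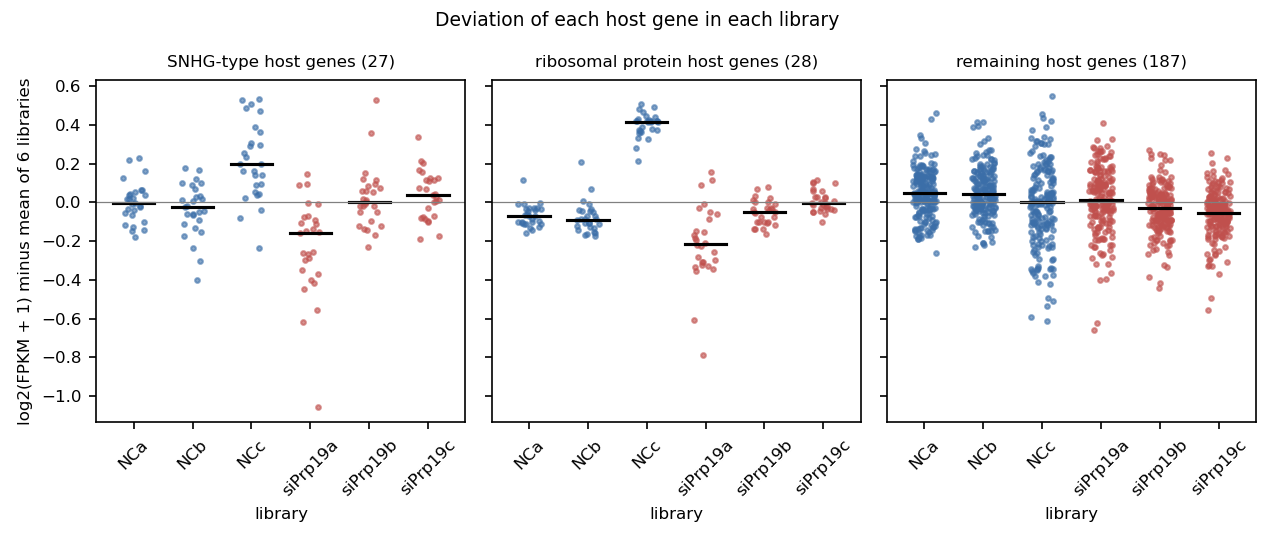
Deviation of log2(FPKM + 1) from the mean of the 6 libraries for each SNHG-type host gene (27), ribosomal protein host gene (28) and remaining host gene (187), 1 point per gene and library with the median as a black bar. The medians in NCc are 0.20, 0.42 and 0.00, and those in siPrp19a -0.16, -0.21 and 0.01.

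Other properties moved with this pattern. The median exon length of the tested host genes was 3344 bases. Tested genes of 1000 to 2000 bases of exon had a median deviation of 0.19 in NCc and -0.09 in siPrp19a, whereas those of 8000 bases or more were at -0.11 and 0.06. Those under 1000 bases were at 0.029 and -0.034, near the 0.022 and -0.007 of all tested genes. The deviations thus did not run steadily from short to long genes. Genes with a mean of at least 30 FPKM were at 0.19 and -0.10. siPrp19a was also the library with the higher mitochondrial share given above. The part of exon length, abundance and mitochondrial share in the pattern of the host genes was not tested.

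A host gene can share exon sequence with a neighbour, so the neighbours were examined. Of the tested genes that are not hosts of this set, 12 overlap an exon of a host gene, and 2 of them passed the test, both lower, where 5.37% of all tested genes passed as lower. *RCC1*, which encodes the nucleotide exchange factor of the GTPase Ran, shares 242 exon bases with *SNHG3* on the same strand. It fell from 28.3, 28.9 and 31.1 FPKM to 18.8, 20.1 and 22.2 FPKM, a log2 difference of -0.51 ± 0.08 (SE) at an adjusted p of 0.0152 by limma. *SNHG3* (chr1:28505980-28510892) moved in the same direction, by -0.25 on the log2 scale, and did not pass. *UBE3A*, a ubiquitin ligase whose paternal copy is silenced in neurons by the antisense transcript SNHG14, overlaps *SNHG14* by 198 exon bases on the opposite strand. It fell from 9.95, 10.1 and 8.88 FPKM to 6.93, 6.25 and 5.74 FPKM, a log2 difference of -0.54 at an adjusted p of 0.0148 by limma.

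*SNHG14* is the host of the long SNORD116 and SNORD115 arrays of the imprinted region on chromosome 15 (chr15:24978583-25419462, plus strand). It was at 1.56, 1.41 and 1.12 FPKM under NC and at 1.76, 1.63 and 1.54 FPKM under siPrp19, so the groups overlapped between NCa and siPrp19c. The log2 difference (siPrp19 minus NC) was 0.17 ± 0.11 (SE) at an adjusted p of 0.425 by limma, and 0.36 by voom on the recovered reads, with an adjusted p of 0.111. With 4 libraries neither *RCC1* (adjusted p of 0.243 by limma) nor *UBE3A* (0.242) passed, and their log2 fold changes were -0.52 and -0.51.

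*MEG8*, host of the SNORD113 and SNORD114 clusters in the imprinted region of chromosome 14 (chr14:100894770-101038859, plus strand), was under the filter. It was at 0.256, 0.287 and 0.167 FPKM under NC and at 0.370, 0.365 and 0.476 FPKM under siPrp19. The reads behind these values were 45, 47 and 32 against 65, 67 and 111. All siPrp19 libraries lay above all NC libraries. Voom without a filter, chosen after these data were seen, gave a log2 fold change of 0.90 ± 0.26 (SE) with an unadjusted p of 0.00249 and an adjusted p of 0.0615, where 1257 of 34468 genes passed (3.65%). On the FPKM + 1 scale without a filter, limma gave 0.18 with an adjusted p of 0.377. *MEG3*, the transcript that lies upstream of *MEG8* on the same strand, was chosen after its values were seen. It rose from 7.53, 7.49 and 6.22 FPKM to 10.9, 11.3 and 11.4 FPKM, a log2 difference of 0.60 at an adjusted p of 0.0102 by limma, and with 4 libraries its adjusted p was 0.157.

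**Figure D4:**
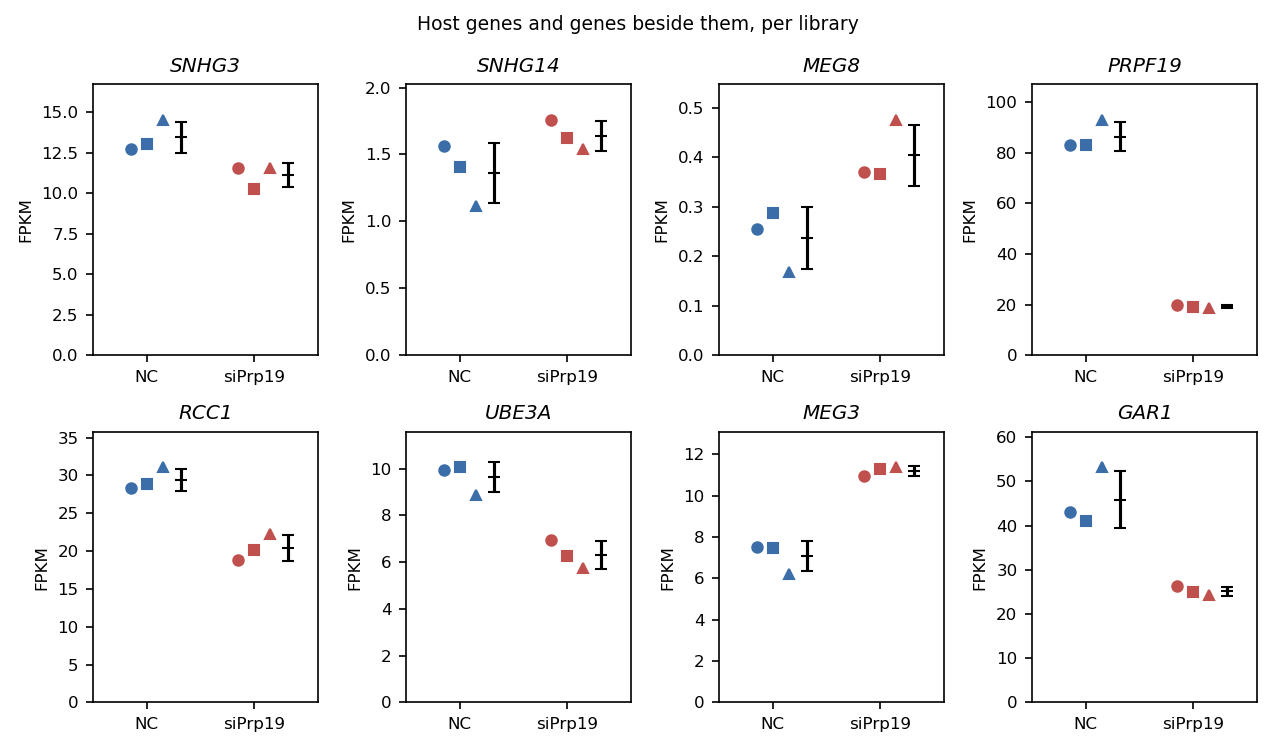
FPKM per library (circle, square and triangle for libraries a, b and c) with mean ± SD (n = 3) for *SNHG3*, *SNHG14* and *MEG8* above their neighbours *RCC1*, *UBE3A* and *MEG3*, and for *PRPF19* above *GAR1*. The groups of *SNHG14* overlap, and those of the other 7 genes do not.

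The other host genes under the filter were low in both groups. *CYTOR*, a long noncoding RNA of chromosome 2, had 188 to 281 reads per library over a long exon set, between 0.721 and 0.889 FPKM, and the ranges of the groups overlapped. *SNHG25* had 0 to 11 reads, *SNHG31* 11 to 27 reads and *SNHG22* 0 to 11 reads per library. An annotated snoRNA gene covers 48.6% of the exon bases of *SNHG25*, so its reads may be understated. The remaining 3 had fewer than 10 reads in every library. *SNHG27* had 1 read in all, and *SNHG18* and *SNHG28* were listed at 0 throughout. Every exon base of *SNHG28* lies within an exon of another gene on the same strand.

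The snoRNAs themselves were looked for within the same libraries. The annotation places 198 snoRNA genes inside 32 of the 35 host genes. It places none inside *GAS5*, the host gene with the highest mean, so the snoRNAs of *GAS5* are not among those counted here. Of the 198, 61 overlap an exon of their host in GENCODE 29, and all 61 were listed at 0 reads in every library. Of the 137 clear of host exons, 67 had at least 1 read, 1128 reads in all. Reads that fall on more than one gene are left out by featureCounts in its default setting. The setting used is not given in the sources used here. The kit is not one for small RNA, so these reads can come from intron sequence as well as from the mature snoRNA, and the files do not separate these sources.

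Summed over the 198 snoRNA genes, the reads were 190, 155 and 210 in the NC libraries and 181, 188 and 204 in the siPrp19 libraries. Scaled to 1000000 reads of the library, this was 11.3 ± 0.808 under NC and 11.2 ± 0.880 under siPrp19 (SD, n = 3). The log2 ratio was -0.02, with p = 0.6 (exact permutation, two-sided). With 3 libraries a group, this test cannot give a p below 0.1. In the 4 libraries the log2 ratio was -0.12. The host genes together took 1447 ± 118 reads per 1000000 under NC and 1398 ± 135 under siPrp19 (SD, n = 3), with p = 0.7 by the same exact permutation test. Neither difference exceeded the spread between libraries.

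The sequences below are those of snoRNA genes among the most read inside these hosts, 2 of each class. Capitals mark the box motifs found in each: TGATGA (box C) and CTGA (box D) for the SNORD genes, and ACA near the 3′ end for the SNORA genes. They are taken from the GENCODE 29 transcripts on GRCh38, on the strand of the host.
SNORD104 (host *SNHG25*, chr17:64146083-64146152): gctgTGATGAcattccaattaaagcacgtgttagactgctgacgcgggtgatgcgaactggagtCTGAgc
SNORD12B (host *ZFAS1*, chr20:49280319-49280409): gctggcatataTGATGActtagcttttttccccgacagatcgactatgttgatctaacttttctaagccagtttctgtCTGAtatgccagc
SNORA73B (host *SNHG3*, chr1:28508559-28508762): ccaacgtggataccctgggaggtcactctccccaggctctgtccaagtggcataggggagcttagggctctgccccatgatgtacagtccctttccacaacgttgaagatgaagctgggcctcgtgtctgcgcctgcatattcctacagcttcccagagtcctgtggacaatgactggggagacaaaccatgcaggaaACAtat
SNORA71C (host *SNHG17*, chr20:38429670-38429803): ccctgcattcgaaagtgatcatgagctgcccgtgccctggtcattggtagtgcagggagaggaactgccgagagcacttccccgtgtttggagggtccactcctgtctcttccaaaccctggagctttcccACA

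In SNORD104, the box C motif begins at base 5 and the box D motif at base 65 of 70. The ACA of SNORA73B is followed by 3 bases. SNORD104 had 17, 20 and 44 reads under NC and 19, 24 and 23 under siPrp19. SNORA73B had 28, 17 and 27 reads under NC and 11, 13 and 16 under siPrp19. All siPrp19 libraries thus lay below all NC libraries, as they did for its host *SNHG3*. SNORA73B also lies inside the span of *RCC1* on the same strand, and *RCC1* was lower under siPrp19 as well. Its reads cannot be assigned to *SNHG3* rather than *RCC1*. SNORD12B had 13, 8 and 8 reads against 3, 5 and 5. Its groups did not overlap either, whereas those of its host *ZFAS1* did (log2 fold change of -0.05). SNORA71C had 26, 20 and 23 reads against 17, 18 and 23, and the groups overlapped. Reads summed by host also separated upward. For the snoRNA genes inside *SNHG14* they were 16, 14 and 6 under NC and 28, 23 and 26 under siPrp19. For those inside *MEG8* they were 12, 16 and 15 under NC and 18, 22 and 23 under siPrp19. The sums inside *SNHG3* and *ZFAS1* separated downward. Over all tested genes, 18.1% had all siPrp19 FPKM values below all NC values and 13.2% had them all above. At counts this low, single snoRNA genes were not tested.

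The proteins that assemble snoRNAs and those that clear host transcripts were then counted. In the list of 17 snoRNA-protein complex (snoRNP) genes, 0 rose and 1 fell, with a median log2 fold change of -0.15. Over all tested genes, 2.57% rose and 5.37% fell, so 1 of 17 is near the share of all genes. The one was *GAR1*, a core protein of box H/ACA snoRNPs, which fell from 43.1, 41.1 and 53.2 FPKM to 26.3, 24.9 and 24.3 FPKM. The log2 difference (siPrp19 minus NC) was -0.83 ± 0.11 (SE) at an adjusted p of 0.00807 by limma, and -0.90 with an adjusted p of 0.120 in the 4 libraries. The other box H/ACA proteins did not pass, with log2 fold changes of -0.17 for *DKC1*, -0.27 for *NHP2* and -0.15 for *NOP10*. The box C/D proteins *FBL* (-0.13), *NOP56* (-0.15), *NOP58* (-0.09) and *SNU13* (-0.05) did not pass either. NCc was the highest library for 15 of the 17.

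Of 18 factors of NMD, including *UPF1*, *SMG1* and the exon junction complex genes, 0 passed the test, with a median log2 fold change of -0.00. *MAGOH* was lowest at -0.48 with an adjusted p of 0.215 by limma. Of 8 protein-coding genes whose transcripts are known NMD targets, such as *ATF4* and *GADD45A*, 0 passed, with a median of -0.13. *UPP1* was highest among these at 0.35, with an adjusted p of 0.0996 by limma. Voom on the recovered reads called 1 gene in each of these 3 lists, where it called 9.99% of all tested genes. *GAR1* was lower (-0.78), and *PNRC2* (0.37) and *UPP1* (0.50) were higher. *PNRC2*, one of the NMD factors, was at 0.28 with an adjusted p of 0.0584 by limma.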

How the data were processed

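Total RNA (TRIzol) was made into libraries with a NEBNext Ultra RNA kit. The submitters' processing notes name HISAT2 2.0.5, featureCounts 1.5.0-p3 and hg38. The authors deposited one table per library of FPKM values. No value column was left unmapped. FPKM times the merged exon length in GENCODE 29 was a whole multiple of a constant for 100% of values above 0 (tolerance 0.05 of a read), which gave the reads. The study's own test, DESeq2, was not run here. Voom stood in for it as the test on reads. Symbols were current names for 58207 identifiers and GENCODE names for 528.

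Genes averaging 1 FPKM or more were transformed to log2(FPKM + 1), so changes of low genes are understated, and tested with limma 3.58.1 (R 4.3.3; moderated, mean-variance trend, Benjamini-Hochberg, threshold 0.05). Single sums were compared with exact permutation tests (scipy 1.17.1). The procedure was tested on simulated data. Named genes were *PRPF19*, every tested host gene, and the called members of each list (at most 4 by size of change). Alternatives were another pseudocount, no filter, quantile scaling, equal sums, voom, no trend, a replicate block, 4 libraries and leaving out each library. Host genes and lists were chosen with earlier results of these data known.

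Counting error and the number of libraries limit precision. Genes with near-identical copies may share reads, and those with overlapping exons may share or lose them. All 61 snoRNA genes that overlap a host exon were listed at 0 reads.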

Additional observations from a re-analysis of the deposited data

How the results depend on the processing

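Host genes past the threshold stayed at 0 under every alternative run, and the 405 refits of single host genes gave 0 calls. *PRPF19* passed in all 15 of its refits, with log2 fold changes between -2.17 and -2.01. The count of all genes past the threshold was 512 without a filter, 679 with equal sums and 2 with 4 libraries, against 1089. Leaving out each library in turn gave 253 to 1354 genes, with the lowest counts without siPrp19c (253), NCa (264), siPrp19b (270) and NCb (335). Higher genes were 32.4% of those called, and 46.1% under quantile scaling (501 of 1087) and 54.5% with voom (747 of 1370). The causes were not tested. The median of the host genes ran from -0.178 to -0.0344 across these fits, and that of all genes moved from -0.0199 to 0.0535 with voom.

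The replicate numbers did not pair the libraries. Deviations correlated at 0.134 for a, -0.0490 for b and 0.204 for c, and not every library correlated best with its own number. With the replicate block, 928 genes and 0 host genes passed, and the median of the host genes was -0.128.

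Some host genes changed sign, *SNHG32* among them, which had the lowest estimate. With quantile scaling, log2 fold changes were 0.0208 for *GAS5*, 0.0668 for *SNHG6*, 0.0947 for *DANCR*, 0.0522 for *SNHG16*, 0.0155 for *TAF1D* and 0.0291 for *EPB41L4A-AS1*. With equal sums, they were 0.0384 for *DANCR* and 0.0357 for *EPB41L4A-AS1*. With voom, they were 0.0103 for *SNHG6*, 0.0708 for *DANCR*, 0.0299 for *SNHG16*, 0.0203 for *TAF1D*, 0.0192 for *ZFAS1* and 0.0742 for *EPB41L4A-AS1*. With voom without a filter, chosen after seeing the data, they were 0.00779, 0.0677, 0.0335, 0.0199, 0.0194 and 0.0751 for the same genes. With 4 libraries, they were -0.0558 for *SNHG15*, -0.237 for *SNHG21* and -0.321 for *SNHG9*. Leaving out each library gave ranges of -0.0467 to 0.0932 for *SNHG15*, -0.185 to 0.272 for *SNHG9*, -0.0812 to 0.305 for *SNHG21*, -0.195 to 0.159 for *SNHG6*, -0.0693 to 0.0953 for *DANCR*, -0.132 to 0.00293 for *ZFAS1*, -0.106 to 0.148 for *EPB41L4A-AS1*, -0.228 to 0.0592 for *SNHG29*, -0.685 to 0.0106 for *SNHG32*, -0.0936 to 0.0164 for *SNHG16*, -0.245 to 0.0486 for *SNHG12* and -0.178 to 0.00777 for *SNHG20*.

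The log2 ratio of reads on snoRNA genes was 0.0439 per read of the hosts, *GAS5* included among the hosts. Leaving out each library gave -0.0743 to 0.0471. Its counts are too few to show a small change.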
